A study of Saccharomyces cerevisiae with 36 samples.

Results

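The genes described here encode the proteins of the large (60S) subunit of the cytosolic ribosome of the yeast Saccharomyces cerevisiae. They were chosen by name, as every measured gene whose symbol is RPL followed by a digit together with RPP0, RPP1A, RPP1B, RPP2A and RPP2B, which leaves out the mitochondrial ribosomal proteins. RefSeq lists 81 such genes, and 74 of them were among the 5338 genes measured. The other 7 were not analysed here. The 3 strains below were compared on 36 Affymetrix expression arrays: an mtr10 deletion strain, an msn5 deletion strain and the wild-type strain BY4742, which is of mating type alpha. Early log phase cultures in defined medium were split, and one part was incubated for 30 min without amino acids (starved) while the other was put back into medium with amino acids (fed). Cycloheximide, which holds ribosomes on messages, was added before harvest, and lysates were run on sucrose gradients to give polysome RNA and non-polysome RNA, beside total RNA. The 3 strains, 2 conditions and 3 kinds of RNA make 18 groups of 2 arrays, which the labels call biological replicates without saying how the cultures were paired. Each deletion is represented by 1 strain, so the strain and the deletion cannot be told apart.

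The large subunit holds the peptidyl transferase centre, where peptide bonds are made, the tunnel through which the new chain leaves, and a flexible stalk that recruits translation factors. After the ancient duplication of the yeast genome, most of its proteins are still encoded by a pair of related genes, called A and B, and the minority by a single gene. How alike the copies of a pair are in sequence differs between pairs and was not examined here. Ribosomal protein genes are among the most active genes of growing yeast, and they are known to be turned down together, by the loss of the activators Ifh1 and Sfp1 from their promoters, when nutrients run short. MSN5 and MTR10 encode carriers of the importin beta family that move cargo, tRNA included, between nucleus and cytoplasm.

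All values are log2 RMA levels, and a change is the difference of 2 group means, so that a change of 1 is 2-fold. Each test was limma's moderated test within 1 fit of all 18 groups with adjustment over all 5338 genes, and calls were made where the adjusted p lay under 0.05. The deleted genes were read first, as a check of the labels. MTR10 lay at 3.6 to 4.7 on 10 of the 12 mtr10 arrays and MSN5 at 3.6 to 4.7 on 10 of the 12 msn5 arrays, against 10.0 to 11.1 and 10.9 to 12.6 on the arrays of the other strains. The exceptions were the fed non-polysome arrays, with 5.5 and 5.2 for MTR10 in mtr10 and 6.9 and 7.2 for MSN5 in msn5. Those 4 arrays are therefore given as levels and enter no comparison below, though they share in the fit's estimate of the spread. The genes that mark mating type a moved with the groups too: the summed level of 7 of them was 13.81 to 14.39 in starved and 13.27 to 13.36 in fed mtr10 total RNA. It was 13.75 to 14.02 in starved and 10.85 in fed msn5 and 15.05 to 15.15 in starved and 10.86 to 11.01 in fed wild-type total RNA, and 4 of the 7 were called higher on starvation in mtr10 and all 7 in msn5 and in wild-type. The 4 alpha-specific genes summed to 14.58 to 14.63 in starved and 15.16 to 15.22 in fed mtr10, 13.32 to 13.37 in starved and 14.21 to 14.28 in fed msn5, and 14.79 to 14.80 in starved and 15.10 to 15.11 in fed wild-type total RNA. The part of this in the changes below was not tested. RMA scales every array to a common distribution, so a loss shared by all messages of a fraction is not seen, and fewer polysomes per cell cannot be told apart from less of a message on them.

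The large-subunit genes were near the top of the range of the arrays. Of the 74, 69 were in the top 10% of genes by mean level. Their mean levels ran between 10.82 (RPL18B) and 14.06 (RPL10), with a median of 13.27, against 10.68 for all genes. The highest value of any probe set on any array was 14.61, not far above the brightest members. Of the 74 members 69 were read by a probe set of their own, and 5 (RPL1B, RPL4A, RPL7A, RPL35A and RPL42B) only by one that the array maker marks as shared between transcripts. Cross-hybridisation of copies to the own sets was not tested. A level of one probe set does not compare with that of another as an amount of RNA. Where members are called brighter or dimmer below, this is the brightness of their probe sets.

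On starvation the messages of the large subunit became scarcer relative to other messages in total RNA of all 3 strains. In mtr10 57 of the 74 members were called lower and none higher, in msn5 67 and none, and in wild-type 41 and none. Among all genes 24% were called lower in mtr10, 32.2% in msn5 and 33% in wild-type, and 24.8%, 28.8% and 31.4% higher (48.7% either way in mtr10). The median change of the members was -0.58 in mtr10, -0.60 in msn5 and -0.35 in wild-type, where the medians of all genes were 0.01, -0.03 and -0.03. In the same order, 72, 72 and 70 of the 74 members had a change below 0. The falls were moderate: 9 members in mtr10, 9 in msn5 and 2 in wild-type reached a 2-fold change. In all 3 strains 36 members were called lower. The like share of all genes is not given here, and it can be at most the 24% of mtr10. The wild-type count depended on each of its arrays: it was 22 without fed replicate 2 and 27 without any other single one of the 4. The msn5 count fell to 36 without starved replicate 2, whose members lay below those of replicate 1.

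**Figure D1:**
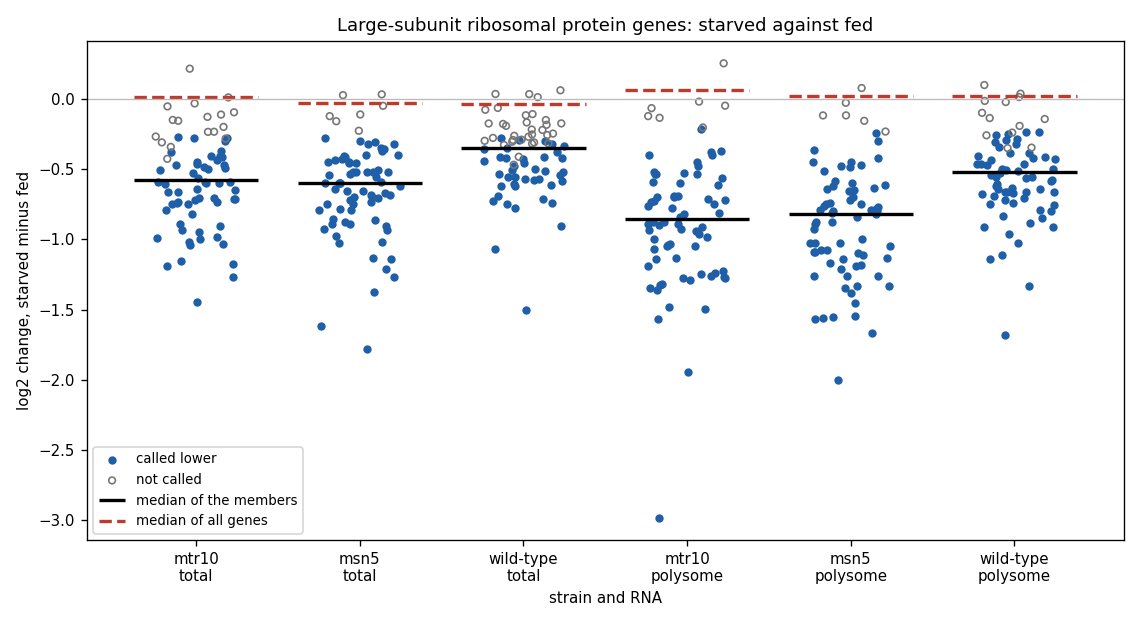
Each point is 1 of the 74 large-subunit genes, with its log2 change (starved minus fed) on the vertical axis and the strain and kind of RNA on the horizontal axis. Filled points were called lower, the black bar is the median of the members and the dashed bar the median of all 5338 genes. The members' medians lie between -0.86 (mtr10 polysome RNA) and -0.35 (wild-type total RNA), below those of all genes in each column, and the lowest point is RPP2A in mtr10 polysome RNA, at -2.98.

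The largest fall in msn5 and wild-type total RNA was that of RPL18B, a gene for the protein L18. Here and below RPL18B is read by its own probe set, the dimmest of the 74 (mean 10.82). A brighter set of the gene (mean 13.69), marked as shared between transcripts, was not used in the main fit, and its changes are not given here. In mtr10 RPL18B was at 9.45 and 9.47 in starved and 10.87 and 10.43 in fed cells, a change of -1.19. In msn5 it was at 9.74 and 9.24 in starved and 11.24 and 11.30 in fed cells, a change of -1.78. In wild-type it was at 10.20 and 10.24 in starved and 11.81 and 11.63 in fed cells, a change of -1.50 ± 0.18 (SE), adjusted p = 3.96e-07, or 2.83-fold. The starved arrays lay below the fed arrays in every strain, and the fed mtr10 arrays lay below the fed arrays of the other strains.

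Among the genes of the stalk and its base, a gene of the base fell most. RPL12A, which encodes L12, the protein on which the stalk sits, was at 11.32 and 11.48 in starved and 12.99 and 12.71 in fed mtr10 total RNA, a change of -1.45 ± 0.19 (SE), adjusted p = 2.45e-06. In wild-type total RNA it was at 12.13 and 12.13 in starved and 13.20 and 13.20 in fed cells, a change of -1.07 ± 0.19 (SE), adjusted p = 4.51e-05, or 2.1-fold. Its change was -1.62 in msn5, and its starved and fed arrays did not overlap in any strain. The other copy, RPL12B, encodes the same protein and changed by -0.41 in mtr10, -0.64 in msn5 and -0.45 in wild-type, all called. The acidic stalk proteins P1 and P2 are encoded by RPP1A, RPP1B, RPP2A and RPP2B. RPP1B was called lower in all 3 strains, with changes of -0.37 in mtr10, -0.53 in msn5 and -0.41 in wild-type. RPP0, the stalk's anchoring protein, was not called in any, with changes of -0.13, -0.11 and 0.01. Of the 7 genes of the stalk and its base 4 were lower in mtr10, 6 in msn5 and 4 in wild-type, beside 24%, 32.2% and 33% of all genes. In wild-type the call of RPP1B was lost without fed replicate 1, and that of RPL12B without any array but starved replicate 2 (adjusted p up to 0.137), and in mtr10 both calls were lost without any single array (up to 0.236 for RPL12B).

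The proteins that enter the subunit with 5S rRNA are L5 and L11. RPL5, the single gene for L5, was at 13.66 and 13.52 in starved and 14.09 and 14.06 in fed mtr10 total RNA, a change of -0.49 ± 0.10 (SE), adjusted p = 0.00033. In wild-type the change of -0.15 was not called. RPL11A changed by -0.93 in mtr10, -0.89 in msn5 and -0.51 in wild-type, each called. RPL11B changed by -0.45, -0.52 and -0.25, the last not called. All 3 genes of this particle were lower in mtr10 and in msn5, and RPL11A alone in wild-type. Of all genes 24%, 32.2% and 33% were called lower in mtr10, msn5 and wild-type. Without msn5 starved replicate 2 the calls of RPL5 (adjusted p = 0.157) and RPL11B (0.0707) were lost in msn5, and RPL11B was lost in mtr10 without starved replicate 2 (0.0791).

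Under RMA, the genes for proteins near the catalytic centre and in the subunit's core had the smallest median change of the groups by role. RPL3 encodes the core protein L3, whose loops reach the peptidyl transferase centre, and it was at 14.10 and 14.04 in starved and 13.98 and 14.04 in fed wild-type total RNA, a change of 0.06 ± 0.07 (SE), adjusted p = 0.469. RPL10 encodes L10, a protein that joins the subunit late, in the cytoplasm. It was at 14.11 and 14.12 in starved and 14.08 and 14.08 in fed wild-type cells, a change of 0.03 ± 0.06 (SE), adjusted p = 0.661. The starved arrays overlapped the fed ones or lay just above them for both genes. Of the 7 genes of this list (RPL2A, RPL2B, RPL3, RPL4A, RPL4B, RPL10 and RPL28) 2 were called lower in mtr10, 3 in msn5 and 2 in wild-type, with medians of -0.10, -0.23 and -0.08. Among all genes 24%, 32.2% and 33% were called lower, so these counts were near the share of all genes. By brightness of their probe sets RPL10, RPL4A and RPL3 ranked 1, 2 and 3 among the members, and RPL28 ranked 10. RPL2B, RPL2A and RPL4B ranked 46, 52 and 57. Brighter members tended to change less, as described below, and the part of brightness in the small medians of this list was not tested. RPL2B, for the core protein L2, was lower in each strain, with changes of -0.50, -0.70 and -0.52. RPL4B, for L4, which reaches into the tunnel, changed by 0.01 (not called) in mtr10, -0.42 in msn5 and -0.42 in wild-type, and the difference between mtr10 and wild-type was 0.43 ± 0.18 (SE), adjusted p = 0.112. RPL28, which encodes L28, was called in mtr10, with -0.28, and not in msn5 and wild-type, with -0.23 and -0.08. The call of RPL28 was lost without any array but mtr10 starved replicate 1, and those of RPL4B without msn5 starved replicate 2 and wild-type fed replicate 2.

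Around the tunnel exit, where the new chain leaves and chaperones dock, 8 of the 11 measured genes were lower in mtr10, 11 in msn5 and 9 in wild-type, with medians of -0.74, -0.79 and -0.52. The shares of all genes called lower were 24%, 32.2% and 33%. RPL31B fell most in wild-type, where it was at 11.79 and 11.74 in starved and 12.67 and 12.68 in fed cells, a change of -0.91 ± 0.22 (SE), adjusted p = 0.00131. RPL25, the single gene for the docking site of the signal recognition particle, changed by -0.71 in mtr10, -0.60 in msn5 and -0.36 in wild-type, each called. RPL39, which encodes a short protein that lines the tunnel, changed by -0.43 (adjusted p = 0.0877) in mtr10, -1.03 in msn5 and -0.73 in wild-type, called in msn5 and wild-type. In wild-type the call of RPL25 was lost without fed replicate 1, fed replicate 2 or starved replicate 2 (adjusted p up to 0.119) and that of RPL39 without starved replicate 2 (0.0634). The 46 members outside these lists counted 40 lower in mtr10, 44 in msn5 and 25 in wild-type.

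The 6 members called in none of the 3 strains in total RNA were RPL3, RPL4A, RPL10, RPL15B, RPL30 and RPP0, and 5 of them, all but RPL15B, ranked 1 to 9 of the 74 by the brightness of their probe sets. Across the 74 members the change correlated with the brightness (Pearson r over genes, which share arrays, 0.36 in mtr10, 0.59 in msn5 and 0.65 in wild-type). The 37 dimmer members had a median change of -0.52 in wild-type, with 28 called lower, and the 37 brighter ones -0.29, with 13. In the authors' MAS5 signals taken without 2 columns that match arrays of the other condition, RPL3, RPL10 and RPP0 changed in wild-type total RNA by -0.41, -0.40 and -0.40, none of them called, and in wild-type polysome RNA by -0.74 each, called. On that scale the median member changed by -0.69 in wild-type. The part of brightness in the small RMA changes of these genes was not tested.

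Whether the copies of a pair fell by different amounts was tested as the within-array difference of A and B, adjusted together with all genes. Of 28 pairs with a probe set for each copy, 19 were called apart in mtr10, 18 in msn5 and 14 in wild-type, where 48.8%, 61.1% and 64.3% of all genes and pairs were called. The share of pairs called was thus above that of the whole table in mtr10, near it in msn5 and below it in wild-type. The wild-type count was 4 and the msn5 count 11 on the MAS5 scale without the mismatched columns. RPL12A fell more than RPL12B, with A minus B at -1.04 ± 0.11 (SE), adjusted p = 1.36e-07, in mtr10, -0.97 in msn5 and -0.63 in wild-type. RPL31 went the other way round: RPL31A, at 13.30 and 13.48 in starved and 13.56 and 13.59 in fed wild-type cells, was not called, while RPL31B fell. A minus B was 1.02 in mtr10, 0.89 in msn5 and 0.73 ± 0.17 (SE), adjusted p = 0.000673, in wild-type, called in each. In all 3 strains A fell below B in RPL11, RPL12, RPL13, RPL20, RPL23 and RPL36, and B below A in RPL6, RPL17, RPL26, RPL31, RPL40 and RPL43. No pair was called in opposite directions in different strains. The copy with the dimmer probe set was the one that fell more in 14 of the 19 called pairs in mtr10, 14 of 18 in msn5 and 13 of 14 in wild-type. Without wild-type starved replicate 2, 7 pairs were called apart in wild-type.

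In polysome RNA, the messages being translated, large-subunit messages also became scarcer relative to other messages on starvation. The medians were below those of total RNA, a difference that was not tested for the members as a whole. In mtr10 67 of the 74 members were called lower, in msn5 68 and in wild-type 61, and none was called higher. Among all genes 27.2% were called lower in mtr10, 32.6% in msn5 and 33.3% in wild-type, and 32.6%, 34.1% and 36% higher. The members' median changes were -0.86, -0.82 and -0.52, beside 0.06, 0.02 and 0.02 for all genes, and 25, 30 and 5 members were at least 2-fold lower. The medians on the MAS5 scale were -1.05, -1.18 and -1.05, so the smaller wild-type fall of the RMA values was not seen there. Called lower in all 3 strains were 60 members, while RPL3, RPL4A, RPL10, RPL15B and RPP2B were called in none. The share of all genes lower in all 3 is not given here and can be at most the 27.2% of mtr10. Without starved polysome replicate 1 the wild-type count was 34. By role, 6 of 7 stalk and base genes were lower in mtr10, 5 in msn5 and 5 in wild-type, all 3 genes of the 5S particle in both mutants and 1 in wild-type, and 10, 11 and 10 of the 11 tunnel exit genes. Of the 7 catalytic and core genes 3, 4 and 4 were lower. RPL30, whose protein blocks the splicing of its own transcript, was at 13.29 and 13.19 in starved and 13.81 and 13.74 in fed mtr10 polysome RNA, a change of -0.53 ± 0.09 (SE), adjusted p = 5.8e-05. In wild-type polysome RNA its change was -0.14 and was not called. The median level of the members in starved polysome RNA was 12.59 in mtr10, 12.67 in msn5 and 13.05 in wild-type, and in the 9 fed groups it was between 13.49 and 13.62.

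One stalk gene stood out. RPP2A, which encodes an acidic P2 protein at the tip of the stalk, was at 10.32 and 10.67 in starved and 13.41 and 13.55 in fed mtr10 polysome RNA, a change of -2.98 ± 0.16 (SE), adjusted p = 5.83e-12, or 7.9-fold. In msn5 polysome RNA it was at 11.99 and 12.65 in starved and 13.71 and 13.70 in fed cells, a change of -1.39 ± 0.16 (SE), adjusted p = 1.35e-07. In wild-type polysome RNA it was at 12.67 and 12.53 in starved and 13.70 and 13.79 in fed cells, a change of -1.14 ± 0.16 (SE), adjusted p = 1.57e-06, or 2.21-fold. The starved polysome arrays lay apart from the fed ones in all 3 strains, and those of mtr10 were the lowest of the 36. In total RNA the same gene was at 13.08 and 13.14 in starved and 13.76 and 13.66 in fed mtr10 cells, a change of -0.60. In wild-type total RNA it was at 13.53 and 13.63 in starved and 13.83 and 13.87 in fed cells, a change of -0.27 ± 0.16 (SE), adjusted p = 0.141. The total RNA arrays of both strains stayed above all the starved polysome arrays. In non-polysome RNA it was at 13.58 and 13.22 in starved mtr10 and 13.87 and 13.82 in starved wild-type cells, against fed wild-type values of 13.93 and 13.93.

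The other P2 gene, RPP2B, was called in no strain in polysome RNA. It was at 13.65 and 13.60 in starved and 13.83 and 13.69 in fed mtr10 polysome RNA, a change of -0.14 ± 0.12 (SE), adjusted p = 0.338. In wild-type polysome RNA it was at 13.74 and 13.82 in starved and 13.93 and 13.91 in fed cells, a change of -0.14. Its starved arrays lay slightly below the fed ones in both strains, without overlap. The difference between the copies was -2.85 ± 0.19 (SE), adjusted p = 1.28e-10, in mtr10, -1.15 ± 0.19 (SE), adjusted p = 2.14e-05, in msn5 and -1.01 ± 0.19 (SE), adjusted p = 9.1e-05, in wild-type. It was the largest of the 28 pairs in polysome RNA of each strain. The extra fall of RPP2A in mtr10 over wild-type, tested as a difference of the changes in polysome RNA, was -1.84 ± 0.22 (SE), adjusted p = 8.58e-06.

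**Figure D2:**
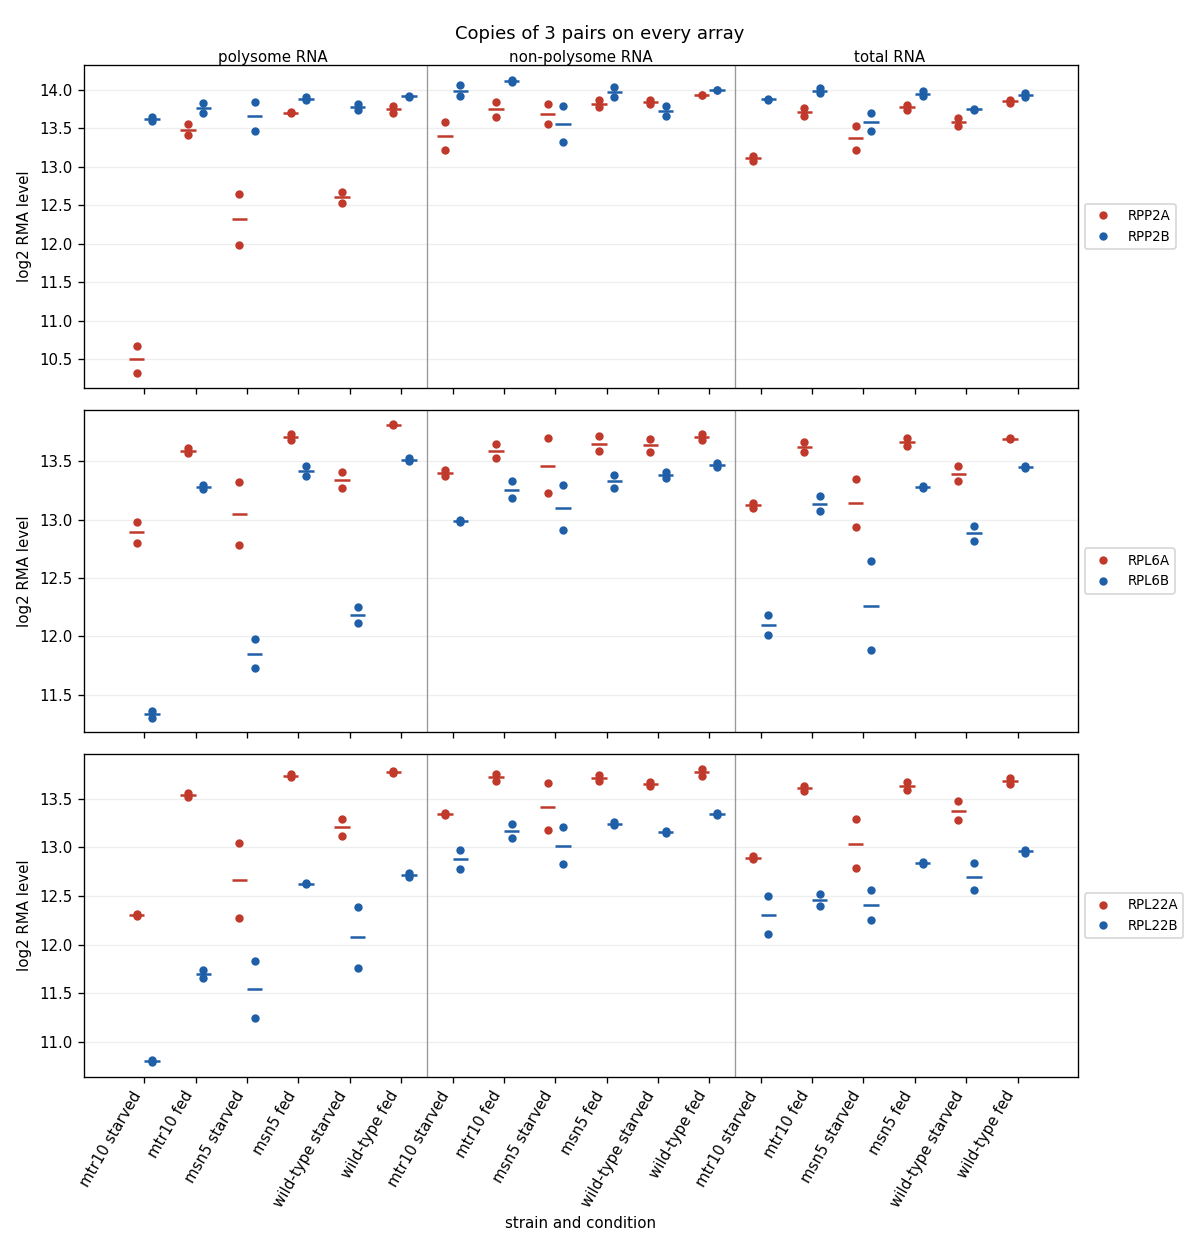
Log2 RMA levels of both copies of 3 pairs on all 36 arrays, as points (2 arrays a group) with a bar at the group mean, by strain and condition (horizontal axis) in polysome, non-polysome and total RNA. RPP2A lies at 10.32 and 10.67 in starved mtr10 polysome RNA while RPP2B stays at 13.33 or above everywhere, RPL6B falls further than RPL6A in starved polysome RNA, and RPL22B is lower in polysome than in non-polysome RNA in fed wild-type cells as well.

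RPL6B, a gene for L6, also fell more on polysomes than its partner. It was at 11.30 and 11.36 in starved and 13.30 and 13.26 in fed mtr10 polysome RNA, a change of -1.95 ± 0.15 (SE), adjusted p = 1.18e-09. In wild-type it was at 12.11 and 12.25 in starved and 13.50 and 13.53 in fed cells, a change of -1.33 ± 0.15 (SE), adjusted p = 1.21e-07. RPL6A was at 13.27 and 13.41 in starved and 13.81 and 13.81 in fed wild-type polysome RNA, a change of -0.47. Both copies fell without overlap of their arrays, and A minus B was 1.25 in mtr10, 0.90 in msn5 and 0.86 ± 0.10 (SE), adjusted p = 1.23e-07, in wild-type. Other large falls in polysome RNA were those of RPL18B (-1.32 in mtr10, -2.00 in msn5 and -1.68 in wild-type) and RPL12A (-1.57, -1.67 and -1.11). RPL36A, RPL2B and RPL13A fell by more than their partners in each strain as well, with A changes of -1.02 for RPL36A and -0.96 for RPL13A and a B change of -0.91 for RPL2B in wild-type.

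Over all 28 pairs, 18 were called apart in mtr10 polysome RNA, 20 in msn5 and 19 in wild-type, where 59.8%, 66.8% and 69.3% of all genes and pairs were called. Both copies were called lower in 25, 26 and 21 pairs. In all 3 strains A fell below B in 8 pairs (RPL11, RPL12, RPL13, RPL15, RPL20, RPL23, RPL36 and RPP2) and B below A in 7 (RPL2, RPL6, RPL16, RPL21, RPL26, RPL31 and RPL43). The copy with the dimmer probe set fell more in 13 of the 18, 15 of the 20 and 15 of the 19 called pairs. RPL11 can serve as an example: RPL11A was at 12.35 and 12.52 in starved and 13.25 and 13.13 in fed wild-type polysome RNA, and RPL11B at 13.60 and 13.67 in starved and 13.84 and 13.81 in fed cells. The starved arrays of RPL11A were well below the fed ones, those of RPL11B only slightly, and the difference was -0.56 ± 0.09 (SE), adjusted p = 8.88e-06.

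**Figure D3:**
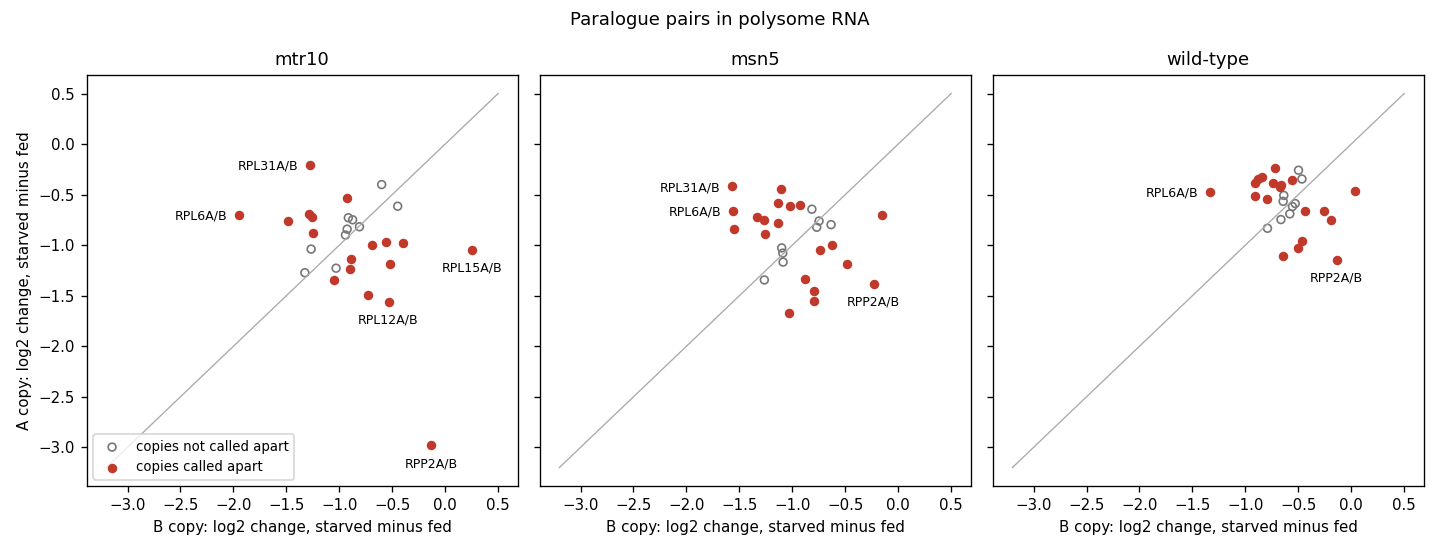
Each point is a paralogue pair in polysome RNA, with the log2 change (starved minus fed) of the B copy on the horizontal and of the A copy on the vertical axis, 1 panel a strain. Filled points are pairs whose copies were called apart, the line marks equal change, and named pairs are called ones with copies more than 0.8 apart. RPP2A/B is the point farthest from the line in each panel, at -2.85 in mtr10, -1.15 in msn5 and -1.01 in wild-type.

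The share of a message on polysomes was read from polysome RNA set against non-polysome RNA. Among fed wild-type cells the members were seldom called between the fractions: 1 was called higher and 1 lower on polysomes, where 26.5% and 24.5% of all genes were, and the median difference was 0.02 beside 0.02 for all genes. The lower one was RPL22B, whose intron is known to be bound by the L22 protein, which blocks its splicing. It was at 12.73 and 12.70 on polysomes and 13.35 and 13.33 off them, a difference of -0.62 ± 0.18 (SE), adjusted p = 0.00605. RPL22A was at 13.78 and 13.76 on polysomes and 13.81 and 13.74 off them in the same cells, and the copies differed by 0.62 ± 0.13 (SE), adjusted p = 0.000276. RPL15A was the member called higher on polysomes, by 0.27 ± 0.09 (SE), adjusted p = 0.0189, a call that was lost without any array but non-polysome replicate 1. With the replicate number as a block within each strain and condition 4 members were called higher and 2 lower.

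In starved cells the members lay towards the non-polysome side. In mtr10 63 of 74 were called lower on polysomes, in msn5 64 and in wild-type 45, and none was called higher. Of all genes 32.9% were lower on polysomes in mtr10, 31.7% in msn5 and 29% in wild-type, and 35.6%, 36% and 34.1% higher. The members' medians were -0.59, -0.60 and -0.38, those of all genes 0.01, 0.04 and 0.03. In all 3 strains 44 members were lower, and RPL3, RPL10, RPL11B and RPP0 were called in none. The share of all genes lower in all 3 is not given here and can be at most the 29% of wild-type. The wild-type count was 21 without polysome replicate 1 and 23 without non-polysome replicate 1, and the msn5 count 38 without polysome replicate 2, 42 without non-polysome replicate 1 and 15 in a fit of the compared groups alone. On the MAS5 scale, without the mismatched columns, it was 73 in wild-type. RPP2A differed most in mtr10, by -2.90 ± 0.16 (SE), adjusted p = 7.21e-12, or 7.48-fold, and by -1.24 ± 0.16 (SE), adjusted p = 7.93e-07, in wild-type. RPL22B followed in mtr10, at 10.81 and 10.79 on polysomes and 12.78 and 12.97 off them, a difference of -2.08 ± 0.18 (SE), adjusted p = 2.28e-09, or 4.21-fold. RPL22A was at 12.29 and 12.32 on polysomes and 13.33 and 13.35 off them in the same cells. The fractions did not overlap for either copy, and A minus B was 1.04 ± 0.13 (SE), adjusted p = 2.61e-07. RPL6B differed by -1.66 in mtr10, -1.25 in msn5 and -1.20 in wild-type. Pairs were called apart in 18, 16 and 15 cases (68.4%, 67.6% and 63.1% of all genes and pairs), and the A copy was the lower on polysomes in all 3 strains in RPL11, RPL15, RPL36 and RPP2, the B copy in RPL6, RPL22, RPL26 and RPL43. The wild-type count of pairs was 7 without polysome replicate 1 and 9 without non-polysome replicate 2.

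Whether starvation shifted a message between the fractions was tested in wild-type, as the change of the polysome to non-polysome ratio. The ratio of 18 members fell and that of none rose, where 16.4% of all genes fell and 23.2% rose. The median was -0.37 for members and 0.08 for all genes, and 73 of the 74 members had a value below 0. RPL6B had the largest shift, -1.24 ± 0.22 (SE), adjusted p = 0.000214, and RPP2A followed with -1.06 ± 0.22 (SE), adjusted p = 0.00107. RPL13A, RPL2B and RPL15A shifted by -0.91, -0.91 and -0.83. RPL15A was at 13.03 and 13.03 on polysomes and 13.57 and 13.61 off them in starved cells, and at 13.49 and 13.49 on polysomes and 13.25 and 13.19 off them in fed cells. The starved arrays of RPL15A were thus higher off polysomes than on them and the fed arrays the other way round. RPP2B, by contrast, had a value of 0.14, not called, so that the copies differed by -1.20 ± 0.27 (SE), adjusted p = 0.00184. Altogether 9 of 28 pairs were called apart, with 39.5% of all genes and pairs. RPL22B, already low on polysomes in fed cells, shifted by -0.46 ± 0.25 (SE), adjusted p = 0.154, which was not called. The count of 18 members was 7 without fed non-polysome replicate 2, starved polysome replicate 1 or starved non-polysome replicate 1, 8 without either fed polysome array, 10 without fed non-polysome replicate 1 and 24 without starved polysome replicate 2. With the replicate number as a block within each strain and condition it was 45. The count of 9 pairs was 3 to 6 without any single array but starved polysome replicate 2. On the MAS5 scale, without the mismatched columns, 68 members were called.

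Few members were called between fed mutants and fed wild-type cells. In fed msn5 total RNA no member was called in limma's test (1 at an unadjusted p under 0.05), where 5.38% of all genes were lower and 6.58% higher. In fed mtr10 total RNA 4 members were called lower and none higher, where 20.7% of all genes were lower. The clearest of the 4 was RPL8A, one of the genes for the protein L8. It was at 12.98 and 13.13 in fed mtr10 and 13.87 and 13.82 in fed wild-type cells, a difference of -0.79 ± 0.10 (SE), adjusted p = 3.16e-06. RPL8B was at 13.71 and 13.71 in fed mtr10 and 13.71 and 13.69 in fed wild-type cells, so the arrays of RPL8A were apart and those of RPL8B were not. A minus B differed by -0.80 ± 0.09 (SE), adjusted p = 1.09e-06. RPL18B differed by -1.07 ± 0.18 (SE), adjusted p = 8.73e-05, RPL9B by -0.53 ± 0.16 (SE), adjusted p = 0.014 and RPL22B by -0.50 ± 0.18 (SE), adjusted p = 0.0317. Of the pairs 5 were called apart (39.3% of all genes and pairs), which besides RPL8 were RPL12 (-0.53), RPL9 (0.42), RPL22 (0.42) and RPL37 (-0.25). The call of RPL22B was lost without any single one of the 4 arrays, that of RPL9B without any but mtr10 replicate 1, and the members called were then 3 without mtr10 replicate 1 and 2 without each other array. The count of pairs was 2 or 3 without any single array.

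More members were called between the strains in starved than in fed cells, and so were more of all genes. In starved mtr10 total RNA 25 members were lower and 3 higher than in starved wild-type, where 28.6% of all genes were lower and 25.7% higher, so the share of members called was not above that of all genes (54.3%). Only 5 members were called on the MAS5 scale without the mismatched columns. RPL8A was at 11.95 and 12.12 in starved mtr10 and 13.28 and 13.32 in starved wild-type cells, a difference of -1.27 ± 0.10 (SE), adjusted p = 2.63e-09, or 2.41-fold. RPL8B was at 13.17 and 13.20 in starved mtr10 and 13.24 and 13.32 in starved wild-type cells, and A minus B differed by -1.17 ± 0.09 (SE), adjusted p = 2.6e-09. A second probe set of RPL8A, which the array maker marks as shared between transcripts, differed by -0.51. This lay between the -1.27 of RPL8A's own set and the -0.10 of RPL8B, and which transcripts the shared set reads was not tested. RPL9B was at 11.04 and 11.09 in starved mtr10 and 12.06 and 11.96 in starved wild-type cells, a difference of -0.94 ± 0.16 (SE), adjusted p = 5.49e-05. The 3 higher members were RPL37B (0.53), RPL4B (0.50) and RPL15B (0.47). Without mtr10 replicate 2 the count of 28 members was 17, and without wild-type replicate 2 it was 18. Of the pairs 16 were called apart (54.3% of all genes and pairs), and 9 without replicate 1 of either strain. In starved msn5 total RNA 6 members were lower than in wild-type and none higher (11% and 9.25% of all genes, 20.2% in all), and the largest difference was RPL13A, by -0.84 ± 0.18 (SE), adjusted p = 0.00209. That count was 0 in a fit of the compared groups alone and 1 on the MAS5 scale without the mismatched columns. It rested on single arrays, as did the call of RPL13A: it was 0 without msn5 replicate 2, 27 without msn5 replicate 1, 3 without wild-type replicate 1 and 2 without wild-type replicate 2.

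RPL15 was a pair whose copies were called in opposite directions between starved mtr10 and starved wild-type. RPL15A, a gene for the protein L15, was at 12.78 and 12.85 in starved mtr10 and 13.39 and 13.31 in starved wild-type total RNA, a difference of -0.53 ± 0.09 (SE), adjusted p = 6.08e-05. RPL15B, the copy with the dimmer probe set, was at 11.19 and 11.25 in starved mtr10 and 10.81 and 10.68 in starved wild-type total RNA, a difference of 0.47 ± 0.11 (SE), adjusted p = 0.00103. The arrays of both copies were apart, RPL15A below and RPL15B above wild-type. A minus B differed by -1.0 ± 0.12 (SE), adjusted p = 8.13e-07. On polysomes RPL15A was at 12.34 and 12.07 in starved and 13.31 and 13.21 in fed mtr10 cells, a change of -1.05 ± 0.09 (SE), adjusted p = 6.94e-09. RPL15B was at 11.09 and 11.18 in starved and 10.95 and 10.81 in fed mtr10 cells, a change of 0.25 ± 0.11 (SE), adjusted p = 0.0516, just short of a call.

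**Figure D4:**
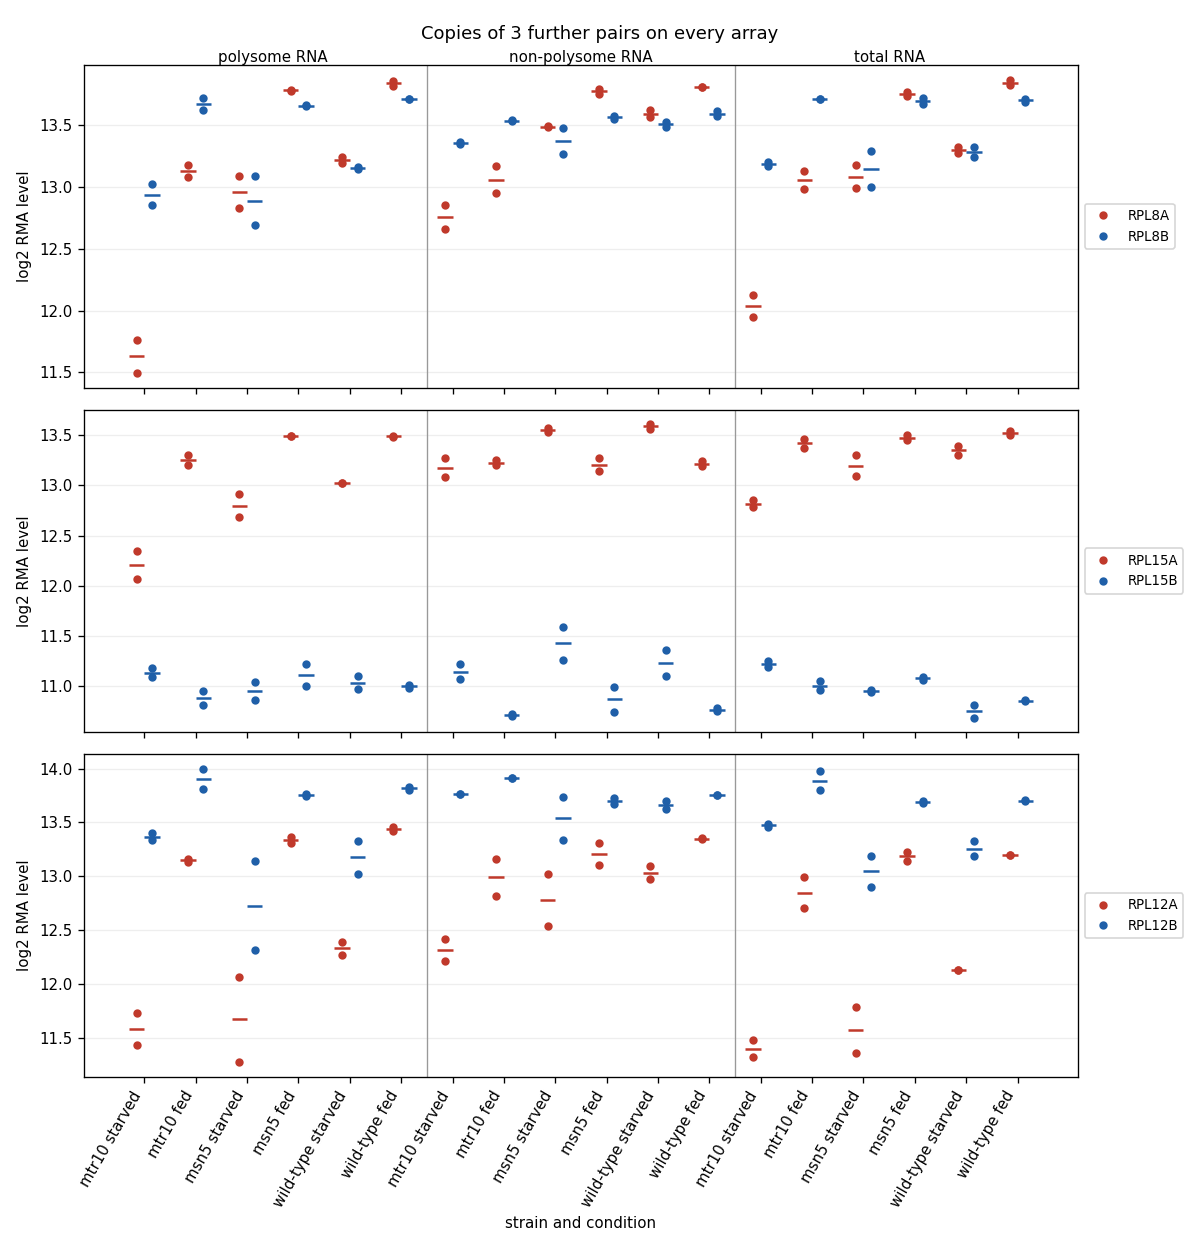
Log2 RMA levels of both copies of RPL8, RPL15 and RPL12 on all 36 arrays, as points (2 arrays a group) with a bar at the group mean, by strain and condition in polysome, non-polysome and total RNA. Leaving out fed non-polysome RNA, whose mutant arrays are given as levels only, RPL8A is lower in each mtr10 group than in msn5 and wild-type under the same condition. RPL8B of fed mtr10 total RNA, at 13.71 and 13.71, lies beside fed wild-type, at 13.71 and 13.69. RPL15B of starved mtr10 total RNA, at 11.19 and 11.25, lies above starved wild-type, at 10.81 and 10.68.

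Whether the response to starvation itself differed between strains was tested as a difference of the changes. In total RNA no member differed between msn5 and wild-type (1 at an unadjusted p under 0.05, and 0.543% of all genes called lower and 0.15% higher), with a median of -0.21. Without msn5 starved replicate 1, 2 members were called. Between mtr10 and wild-type 2 members differed, RPL8A by -0.48 ± 0.14 (SE), adjusted p = 0.0292 and RPL15A by -0.43 ± 0.13 (SE), adjusted p = 0.0338, where 7.83% of all genes were called lower and 6.43% higher. The call of RPL8A was lost without any array but mtr10 fed replicate 1 and mtr10 starved replicate 2, and that of RPL15A without any but wild-type starved replicate 2, so the count was 0 or 1 without any single array. Of the pairs 4 differed (14.3% of all genes and pairs), RPL15 by -0.75 ± 0.18 (SE), adjusted p = 0.00606, RPL14 by -0.43, RPL16 by 0.38 and RPL19 by 0.34. Without any array but mtr10 starved replicate 1 the count of pairs was 1 or 2, and the RPL15 pair was called without each of the 8 arrays in turn. In polysome RNA no member was called for msn5 (11 at an unadjusted p under 0.05; 0.88% of all genes lower and 0.131% higher), with a median of -0.33. The labels do not pair the numbered arrays across strains and conditions. Matched by number all the same, those numbered 2 gave a median of -0.72 with 73 of 74 members below 0. Those numbered 1 gave a median of 0.03 with 28 below 0. The median was -0.13 on the MAS5 scale, and that of mtr10 was 0.01 there where the RMA values gave -0.32. Without msn5 starved polysome replicate 1, 26 members and 2 pairs were called for msn5. For mtr10 6 members fell further than in wild-type, where 9.46% of all genes were called lower and 6.76% higher. Besides RPP2A these were RPL8A (-0.88 ± 0.14 (SE), adjusted p = 0.00024), RPL15A (-0.59 ± 0.13 (SE), adjusted p = 0.00383), RPL21B (-0.69), RPL17A (-0.65) and RPL7A (-0.35). RPL7A was lost without any single array, and RPL21B and RPL17A without any but wild-type starved replicate 1. The count was 3 without any array but replicate 1 of starved mtr10 and starved wild-type. On the MAS5 scale, without the mismatched columns, RPP2A was called and the other 5 were not, RPL7A being at 0.03. Of the pairs 7 differed (16.4%), led by RPP2 (-1.84 ± 0.27 (SE), adjusted p = 8.51e-05), RPL15 (-0.80), RPL8 (-0.70) and RPL12 (-0.56). That count was 3 or 4 without either wild-type fed array, wild-type starved replicate 1, mtr10 fed replicate 2 or mtr10 starved replicate 1.

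Over the 18 groups most copies kept close company. Pearson's r between the group means of A and B, a description over groups that share strains and cultures, had a median of 0.93 over the 28 pairs, and 18 pairs were above 0.9. The fed non-polysome groups of the mutants are part of this, and without them the median was 0.93. For 2318 couples of members that are not copies of each other the median was 0.88, and 9 pairs of copies lay below it. RPL36A/B (0.99), RPL33A/B and RPL19A/B were the most alike. RPL15A/B (-0.02), RPP2A/B (0.48), RPL8A/B (0.69) and RPL31A/B (0.75) were the least alike. In 21 of the 28 pairs the SD of A minus B between groups was over 2 times that within groups (medians of 0.23 and 0.09). In no pair was the B copy the member most like A. Set against the mean of all other members, RPL15B (r of -0.23), RPL3 (-0.06), RPL10 (0.26) and RPL4A (0.32) were the least alike, of which RPL3 and RPL10 spanned 0.23 and 0.22 in all over the 18 groups. Members that neighbour each other on a chromosome were RPL13A and RPP1A (r of 0.84) and RPL24A and RPL30 (0.76).

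**Figure D5:**
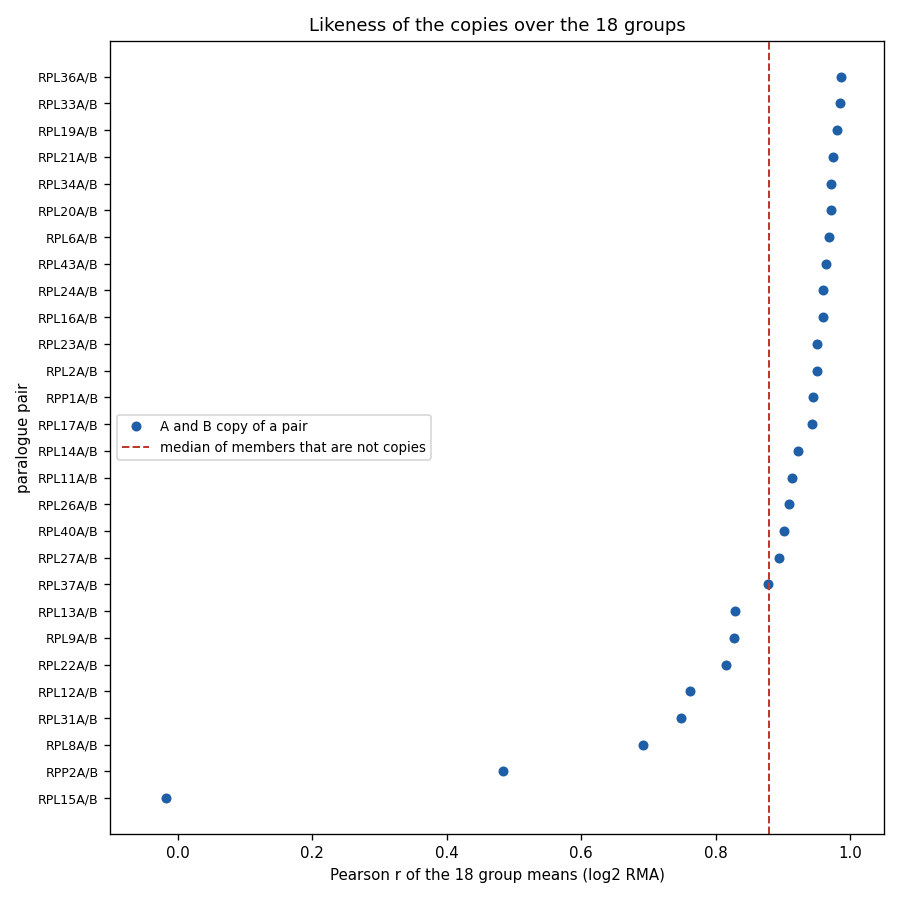
Pearson's r over the 18 group means of the A and B copy (horizontal axis) for each of the 28 pairs (vertical axis, sorted). The dashed line is the median of 0.88 over couples of members that are not copies. RPL15A/B lies at -0.02 and RPP2A/B at 0.48, and 18 pairs lie above 0.9.

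Among the genes that act with the large subunit, those for its assembly had larger median falls under RMA than the members themselves. The members' probe sets lay near the top of the range of the arrays, and the part of brightness in this difference was not tested. The dedicated chaperones and importers, which guard single ribosomal proteins on their way to the nucleolus, were lower in 7 of 7 cases in mtr10, 6 in msn5 and 7 in wild-type total RNA, with medians of -1.15, -1.15 and -1.59. In wild-type SYO1, the escort of L5 and L11, changed by -1.98 ± 0.32 (SE), adjusted p = 1.62e-05, ACL4, that of L4, by -1.94, RRB1, that of L3, by -1.59 and SQT1, that of L10, by -0.91. Of 17 measured genes for 60S assembly and export 17 were lower in mtr10, 14 in msn5 and 16 in wild-type. The 52 genes of the small subunit counted 42, 51 and 36 lower, with medians of -0.55, -0.68 and -0.40. Of the 14 regulators of ribosomal protein genes 6, 5 and 5 were lower and 1, 3 and 4 higher, beside 24%, 32.2% and 33% lower and 24.8%, 28.8% and 31.4% higher among all genes. The corepressor gene CRF1 changed by 0.33 ± 0.17 (SE), adjusted p = 0.114, in mtr10, 1.70 in msn5 and 1.92 ± 0.17 (SE), adjusted p = 2.69e-09, in wild-type, and the difference of mtr10 from wild-type was -1.59 ± 0.24 (SE), adjusted p = 0.000111. The activator genes IFH1 and SFP1 were not called in wild-type, at -0.49 and 0.24.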

How the data were processed

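RNA from 18 groups of 2 arrays was hybridised to Affymetrix yeast arrays. The authors deposited log2 expression values for 5684 probe sets, made with RMA per the submitters' processing notes, and a matrix of MAS5 signal intensities, with array means of 553 to 607, whose 36 columns of detection p were not used. In the deposited intensity matrix, 2 columns named as wild-type total RNA match arrays of the other condition, so it served only as an alternative, as log2 signals centred on array medians. Of 5379 probe sets with 1 gene, 5338 genes were kept, taking a gene's own set over a shared one and then the brightest. All values were fitted with limma 3.58.1 (R 4.3.3) over the 18 groups, with Benjamini-Hochberg adjustment over all genes. Paralogue pairs were tested as differences of A and B within each array, in the same fit with all genes. Among 19 comparisons, the differences between strains of the polysome RNA change were added after the data were seen. The members and lists were chosen with earlier results of these data known. Named were, per comparison, the 5 called members with the largest change each way and arrays apart, the 4 pairs with the largest called difference, and a fixed list by role; others are named as examples. Replicate arrays correlated at 0.965 to 0.995, and with 2 arrays a group their number limits the precision. Alternatives were the MAS5 signals, centring, the mean of or the brightest of a gene's probe sets, fits of the compared groups alone, replicate blocks and leaving out each array. Promoter motifs and probe sequences were not analysed here.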

Additional observations from a re-analysis of the deposited data

Results flagged for a closer look

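The results below stood out because a change under one condition differed from the same change under another, by limma's test of the difference itself. In wild-type cells the starvation change differed between polysome and non-polysome RNA for 18 of the 74 members and 9 of the 28 pairs. Of all genes 39.5% were called there, and 39.5% of all genes and pairs, so members and pairs were not called more often. The members with the largest differences were RPL6B (-1.24), RPP2A (-1.06), RPL2B (-0.91), RPL13A (-0.91) and RPL15A (-0.83). The pairs whose A and B copies differed most in this were RPP2A/B (-1.20), RPL6A/B (0.84), RPL11A/B (-0.57) and RPL36A/B (-0.43). The call of RPL36A/B was lost without any array but fed non-polysome replicate 1 and starved polysome replicate 2, and that of RPL2B without starved polysome replicate 1.

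In total RNA the starvation change of mtr10 differed from that of wild-type for 2 members, RPL8A (-0.48) and RPL15A (-0.43), and 4 pairs, RPL15A/B (-0.75), RPL14A/B (-0.43), RPL16A/B (0.38) and RPL19A/B (0.34). Of all genes 14.3% were called in that comparison, and 14.3% of all genes and pairs. In polysome RNA the starvation change of mtr10 differed from that of wild-type for 6 of the 74 members and 7 of the 28 pairs. Of all genes 16.2% were called there, and 16.4% of all genes and pairs. The members were RPP2A (-1.84), RPL8A (-0.88), RPL21B (-0.69), RPL17A (-0.65), RPL15A (-0.59) and RPL7A, and the widest pairs RPP2A/B (-1.84), RPL15A/B (-0.80), RPL8A/B (-0.70) and RPL12A/B (-0.56). The calls of RPP2A, RPL8A, RPL15A and the RPP2, RPL15 and RPL8 pairs in polysome RNA were kept without any single array.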

How the results depend on the processing

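Reversed and lost calls were looked for among the named members and pairs and the fixed list by role. None of these turned its direction under RMA when arrays were centred on their medians or an array was left out. None did so with the brightest or the mean of a gene's probe sets, the compared groups alone or the replicate block. With the brightest probe set 5 of these calls were lost, with the mean 1, with centring 1 and with the compared groups alone 45. On MAS5 signals 39 were lost without the mismatched columns and 46 on all columns, besides those that turned sign. With each array left out in turn, 275 losses were counted over all calls and arrays, against 1045 cases in which the call was kept. On MAS5 signals without the mismatched columns, chosen after the data were seen, the number of members called was 5 (in place of 28) for starved mtr10 against wild-type, 1 (in place of 6) for starved msn5 against wild-type, 73 (in place of 45) for polysome against non-polysome RNA in starved wild-type, 68 (in place of 18) for the ratio change in wild-type, 0 (in place of 2) for the total RNA difference of mtr10 and 1 (in place of 6) for the polysome RNA difference of mtr10, and that of pairs 11 (in place of 18) for total RNA on starvation in msn5, 4 (in place of 14) for total RNA on starvation in wild-type, 8 (in place of 16) for starved mtr10 against wild-type, 1 (in place of 5) for starved msn5 against wild-type, 11 (in place of 18) for polysome against non-polysome RNA in starved mtr10, 7 (in place of 16) for polysome against non-polysome RNA in starved msn5, 8 (in place of 15) for polysome against non-polysome RNA in starved wild-type, 1 (in place of 2) for fed wild-type cells, polysome against non-polysome RNA, 4 (in place of 9) for the ratio change in wild-type, 0 (in place of 4) for the total RNA difference of mtr10 and 3 (in place of 7) for the polysome RNA difference of mtr10. On all MAS5 columns as deposited the number of members was 0 (in place of 41) for total RNA on starvation in wild-type, 10 (in place of 6) for starved msn5 against wild-type, 13 (in place of 4) for fed mtr10 against wild-type, 0 (in place of 2) for fed wild-type cells, polysome against non-polysome RNA, 4 (in place of 2) for the total RNA difference of mtr10 and 0 (in place of 6) for the polysome RNA difference of mtr10, and that of pairs 9 (in place of 19) for total RNA on starvation in mtr10, 9 (in place of 18) for total RNA on starvation in msn5, 0 (in place of 14) for total RNA on starvation in wild-type, 12 (in place of 20) for polysome RNA on starvation in msn5, 11 (in place of 19) for polysome RNA on starvation in wild-type, 3 (in place of 5) for starved msn5 against wild-type, 9 (in place of 18) for polysome against non-polysome RNA in starved mtr10, 5 (in place of 16) for polysome against non-polysome RNA in starved msn5, 3 (in place of 15) for polysome against non-polysome RNA in starved wild-type, 1 (in place of 2) for fed wild-type cells, polysome against non-polysome RNA, 2 (in place of 9) for the ratio change in wild-type, 2 (in place of 4) for the total RNA difference of mtr10, 1 (in place of 0) for the total RNA difference of msn5 and 1 (in place of 7) for the polysome RNA difference of mtr10. There the wild-type total RNA change had the other sign in RPL18B (0.13), RPL31B (0.0014), RPL17B (0.25), RPP1A (0.093), RPP1B (0.11), RPL12B (0.065), RPL25 (0.073), RPL9A (0.0044), RPL39 (0.0016), RPL29 (0.035) and RPL43A/B (-0.13), where the mismatched columns enter. Of the other named results the sign turned, among these columns, in RPL22B (0.034, fed mtr10 against wild-type), RPL19A/B (-0.27, the total RNA difference of mtr10) and RPL7A (0.031, the polysome RNA difference of mtr10), and without the mismatched ones in RPL19A/B (-0.16) and RPL7A (0.031). The cause was not tested. Fitted on the compared groups alone, with fewer residual degrees of freedom, the members called were 0 (in place of 6) for starved msn5 against wild-type, 7 (in place of 4) for fed mtr10 against wild-type, 2 (in place of 0) for fed msn5 against wild-type, 15 (in place of 64) for polysome against non-polysome RNA in starved msn5, 8 (in place of 2) for fed wild-type cells, polysome against non-polysome RNA, 32 (in place of 18) for the ratio change in wild-type, 13 (in place of 2) for the total RNA difference of mtr10 and 13 (in place of 6) for the polysome RNA difference of mtr10, and the pairs 0 (in place of 5) for starved msn5 against wild-type, 9 (in place of 5) for fed mtr10 against wild-type, 1 (in place of 0) for fed msn5 against wild-type, 5 (in place of 16) for polysome against non-polysome RNA in starved msn5, 6 (in place of 15) for polysome against non-polysome RNA in starved wild-type, 5 (in place of 9) for the ratio change in wild-type and 4 (in place of 7) for the polysome RNA difference of mtr10. The labels do not pair the replicate numbers: over all strains, 63 of 153 couples of groups had deviations of same-numbered arrays correlated above 0.1 (-0.66 to 0.64). Between the 3 kinds of RNA of one strain and condition they were 0.45 to 0.48 in fed wild-type, 0.37 to 0.62 in starved wild-type and 0.42 to 0.53 in starved msn5, but -0.20 to 0.41 in starved mtr10, -0.04 to 0.64 in fed mtr10 and -0.66 to 0.55 in fed msn5. With the number as a replicate block within each strain and condition, chosen after the data were seen, the members called between polysome and non-polysome RNA were 6 (in place of 2) for fed wild-type cells, polysome against non-polysome RNA and 45 (in place of 18) for the ratio change in wild-type, and the other counts of these comparisons stayed within 1.5 times. With the number as a single replicate block over all strains the members called were 12 (in place of 6) for starved msn5 against wild-type, 4 (in place of 2) for the total RNA difference of mtr10 and 13 (in place of 6) for the polysome RNA difference of mtr10, and no other count moved by over 1.5 times. With the mean of a gene's probe sets the members called were 1 (in place of 2) for the total RNA difference of mtr10. With single arrays left out, the count of members ran over 36 to 70 for total RNA on starvation in msn5, 22 to 27 for total RNA on starvation in wild-type, 34 to 58 for polysome RNA on starvation in wild-type, 17 to 23 for starved mtr10 against wild-type, 0 to 27 for starved msn5 against wild-type, 2 to 3 for fed mtr10 against wild-type, 38 to 70 for polysome against non-polysome RNA in starved msn5, 21 to 45 for polysome against non-polysome RNA in starved wild-type, 1 to 2 for fed wild-type cells, polysome against non-polysome RNA, 7 to 24 for the ratio change in wild-type, 0 to 1 for the total RNA difference of mtr10, 0 to 2 for the total RNA difference of msn5, 3 to 5 for the polysome RNA difference of mtr10 and 0 to 26 for the polysome RNA difference of msn5. The count of pairs ran over 7 to 11 for total RNA on starvation in wild-type, 9 to 15 for starved mtr10 against wild-type, 1 to 8 for starved msn5 against wild-type, 2 to 3 for fed mtr10 against wild-type, 7 to 15 for polysome against non-polysome RNA in starved wild-type, 1 to 1 for fed wild-type cells, polysome against non-polysome RNA, 3 to 10 for the ratio change in wild-type, 1 to 3 for the total RNA difference of mtr10, 3 to 6 for the polysome RNA difference of mtr10 and 0 to 2 for the polysome RNA difference of msn5. The median likeness of copies (0.93) was 0.96 on either set of MAS5 columns and 0.92 to 0.93 over the arrays of 1 replicate number. On the MAS5 scale the median member changed in polysome RNA by -1.05 in mtr10, -1.18 in msn5 and -1.05 in wild-type, against -0.86, -0.82 and -0.52 under RMA. Groups of 2 arrays leave changes near the threshold open to a single array.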
